A study of Mus musculus with 5 samples.

Results

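The 9 genes described here, T, Eomes, Mixl1, Gsc, Mesp1, Tbx6, Evx1, Lhx1 and Kdr, are regulators of the primitive streak and of the early mesoderm that leaves it. They were taken by name, and every probe whose array accession maps to one of them was used. All 9 had a probe, out of 18327 genes named on the array. Of these 9, 6 were well above background on at least 1 array, against 15432 of the 18327 named genes, and 3 (Mixl1, Evx1 and Kdr) were not well above background on any array.

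The primitive streak forms in the epiblast of the gastrulating embryo, where cells leave the epithelium to become mesoderm and definitive endoderm. Nodal and Wnt signals from the epiblast and its neighbours induce the T-box factors T (Brachyury) and Eomes, and the streak is then divided along its length into an anterior region marked by Gsc and Lhx1 and a posterior region marked by Evx1. Mesp1, Tbx6 and Kdr appear as mesoderm is specified to cardiac, presomitic and blood or endothelial fates, and pluripotent cells in culture can pass through a streak-like state when they leave self-renewal.

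The study fused mouse embryonic stem cells with the mouse hepatoma line Hepa1-6 and asked how gene expression in the hybrids compared with both parents before and after differentiation. RNA from each of 5 conditions was hybridized to 1 one-colour Agilent mouse array. The conditions were ES (line E14), EHe (undifferentiated hybrid), EHeD7 and EHeD14 (the hybrid differentiated in vitro for 7 and 14 days) and Hepa1-6. Since each condition had 1 array, no replicate error exists and no p-value was computed. By the study's methods the ES cells carried RFP and hygromycin resistance and Hepa1-6 carried GFP and neomycin resistance. Hybrids were made with polyethylene glycol, selected with both drugs, picked as single colonies and found near-tetraploid. Which colony was used on the arrays is not stated. ES and EHe grew in Glasgow minimum essential medium with serum replacement, some fetal bovine serum and leukemia inhibitory factor (LIF). By the labels the differentiating hybrids were plated on gelatin as a monolayer in high-glucose DMEM with fetal calf serum, the same base medium as Hepa1-6, so the medium and loss of LIF went together with time in differentiation. The study's methods describe embryoid bodies with serum replacement, without naming the array samples. ES, EHe, EHeD7 and EHeD14 lay on slide 1 and Hepa1-6 alone on slide 2, so an effect of the slide cannot be told apart from the line.

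Levels are given as the signal of a probe in percent of the 75th percentile of its own array, which was 1087.1 signal units for ES, 1292.5 for EHe, 1307.0 for EHeD7, 1334.5 for EHeD14 and 1456.3 for Hepa1-6. The share of probes that passed the scanner's call of well above background was 62.1% for ES, 56.8% for EHe, 67.6% for EHeD7, 63.6% for EHeD14 and 54.6% for Hepa1-6. The lowest level among such probes, taken as the detection limit, was 2.33% in ES and 3.49% in EHe, 1.4% in EHeD7 and 2.13% in EHeD14, and 2.53% in Hepa1-6. EHe, the array against which differentiation is compared, therefore had the highest limit. Where a probe was not well above background on 1 array of a pair, that array's value was set to the higher of its limit and the measured level. The fold is written as at least N-fold where the limit was used. Where the measured level was the higher, as for Gsc and Hand1 in EHe, the fold is as measured and not a bound. No fold is given where both values were below background, or where the dim value exceeded the other. Such a bound holds for the signals as processed by the scanner software, and a different background correction (normexp) gives other values.

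The labels were checked against marker genes. Pou5f1, a core pluripotency factor, stood at 1342% in ES and 1648% in EHe and was not well above background in Hepa1-6. Alb, which encodes the main plasma protein made by hepatocytes, stood at 6669% in Hepa1-6 and was not well above background on any other array. In Hepa1-6, 4 of 7 hepatocyte and hepatoma genes were well above background, and Ttr, Apoa1 and Apoh were not. In EHe, 0 of the 7 were by the brightest probe of each gene, although another Hnf4a probe, A_52_P683991, was well above background there, at 13.8%, and in Hepa1-6, at 192%.

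Differentiation of the hybrid brought the clearest change in the 9 genes. Against EHe, 3 of the 6 genes well above background on at least 1 of both arrays were over 3-fold higher in EHeD7, and 7.12% of all 14681 named genes compared were. None of the 6 was over 3-fold lower, against 4.3% of all genes. In EHeD14 there were again 3 of 6 over 3-fold higher, against 7.37% of all 14267 genes compared, and 0 over 3-fold lower, against 4.76%. The 3 were T, Eomes and Gsc on both days, and no fold could be given for Mesp1, which is counted among the 6. In EHe the probes of T, Gsc and Mesp1 were not well above background, so these genes entered these comparisons through the differentiated arrays alone. The median log2 difference of the 6 genes, with bounds at their value and Mesp1 at 0, was 1.89 at day 7 and 2.45 at day 14, against -0.02 for all genes on both days. Both days were compared with the same EHe array and share its error. A larger share of cells with these transcripts and more RNA per cell cannot be told apart in such bulk samples.

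T, the founding T-box gene, needed for posterior mesoderm and notochord, was bright on both days. Its probe A_51_P285725 was printed 10 times on each array. It read 4.66% in ES and 1.38% in EHe, 307% in EHeD7 and 327% in EHeD14, and 0.553% in Hepa1-6, and was not well above background in EHe and Hepa1-6. T was thus bright in both differentiated samples, low in ES and below the limit in EHe and Hepa1-6. The spots ranged from 3633 to 4368 signal units in EHeD7 and from 3801 to 4738 in EHeD14, while no spot in EHe exceeded 25.4 and none in ES exceeded 57.5. T rose at least 88-fold by day 7 and at least 93.7-fold by day 14 against EHe. With normexp background correction these log2 differences were 5.18 and 5.26 in place of 6.46 and 6.55. Against ES, where it was measured, it was 65.9-fold and 70.2-fold higher. Days 7 and 14 differed by 0.09 on the log2 scale, with a spot SD of 0.07 in EHeD7 and 0.10 in EHeD14.

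Eomes, a T-box factor of the anterior streak, definitive endoderm and trophoblast, followed T. Its probe A_51_P332309 read 6.07% in ES and 9.6% in EHe, 154% in EHeD7 and 151% in EHeD14, and 1.24% in Hepa1-6, where it was not well above background. ES and EHe were both low and the differentiated samples both high. Against EHe it was 16-fold higher at day 7 and 15.7-fold at day 14, and the 2 days differed by -0.03 on the log2 scale. The scanner's own error for this probe, printed in 1 spot, was 13.6% of the signal in EHe and 10% on both differentiated arrays.

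Gsc, the homeobox gene of the anterior streak and organizer, rose more by day 14 than by day 7. Its probe A_51_P370717 read 8.67% in ES and 4.8% in EHe, 24.6% in EHeD7 and 56% in EHeD14, and 0.603% in Hepa1-6, with EHe and Hepa1-6 not well above background. By its measured EHe level, which was above that array's limit, Gsc was 5.13-fold higher than EHe at day 7 and 11.7-fold higher at day 14. These are not lower bounds, and the scanner's own error in EHe was 22.7% of the signal. Against ES the values were 2.84-fold, under the 3-fold threshold, and 6.46-fold. With normexp background correction the day 7 log2 difference from EHe was 1.26 in place of 2.36, which is under 3-fold. The scanner's own error was 10.1% of the signal on both differentiated arrays, and day 14 exceeded day 7 by 2.27-fold.

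Lhx1, a LIM homeobox gene of the anterior streak and node, stayed dim. The 10 spots of its probe A_51_P452119, less those flagged as outliers, gave 6.55% in ES and 4.5% in EHe, 5.79% in EHeD7 and 11.1% in EHeD14, and 2.13% in Hepa1-6. It was well above background on all arrays but Hepa1-6, though in only 7 of the 10 spots in EHe. EHeD14 was the highest array, 2.47-fold above EHe and 1.92-fold above EHeD7, both under 3-fold. The spot SD was 0.37 on the log2 scale in EHe and 0.15 in EHeD14, and the log2 difference between these 2 arrays was 1.30. EHeD7, with a spot SD of 0.16, and EHe differed by 0.37.

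Of the members that follow the streak into mesoderm, Tbx6 alone gave a fold against EHe, under 3-fold on both days, and Mesp1 and Kdr gave none. Tbx6, a T-box factor that commits cells to presomitic mesoderm, was the sole member well above background on all 5 arrays. Its probe A_51_P105991 read 15.8% in ES and 9.02% in EHe, 24.1% in EHeD7 and 23% in EHeD14, and 26.9% in Hepa1-6. The hepatoma array was thus slightly above the differentiated hybrids, from which it differed by 1.12-fold and 1.17-fold. EHeD7 exceeded EHe by 2.67-fold and EHeD14 exceeded EHe by 2.55-fold.

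Mesp1, a basic helix-loop-helix factor of nascent cardiac and cranial mesoderm, had 2 probes. The brighter, A_52_P627833, read 4.29% in ES and 4.56% in EHe, 3.06% in EHeD7 and 3.91% in EHeD14, and 0.609% in Hepa1-6, and was not well above background in EHe and Hepa1-6. No fold against EHe can be given, since the dim EHe value was above both differentiated values. Against ES, Mesp1 was lower by 1.4-fold at day 7 and 1.1-fold at day 14, with a scanner error of 18.7% of the signal in ES and 16.1% in EHeD7. The other probe, A_51_P341725, was not well above background on any array and lay between 0.538% and 2.12%. Where T was bright, Mesp1 was no higher than in ES.

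The remaining 3 members gave no fold. Mixl1, a paired-type homeobox gene of the streak, read 0.509% in ES and 0.748% in EHe, 1.42% in EHeD7 and 1.66% in EHeD14, and 0.528% in Hepa1-6, with no array well above background. Evx1, a homeobox gene of the posterior streak, lay between 0.518% in EHeD7 and 1.71% in EHeD14. Kdr, the receptor for vascular endothelial growth factor on early blood and endothelial progenitors, lay between 0.564% in Hepa1-6 and 1.33% in ES, and 0 of its spots on any array were called well above background, although its probe was printed 10 times. A level not well above background cannot be told apart from none.

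**Figure D1:**
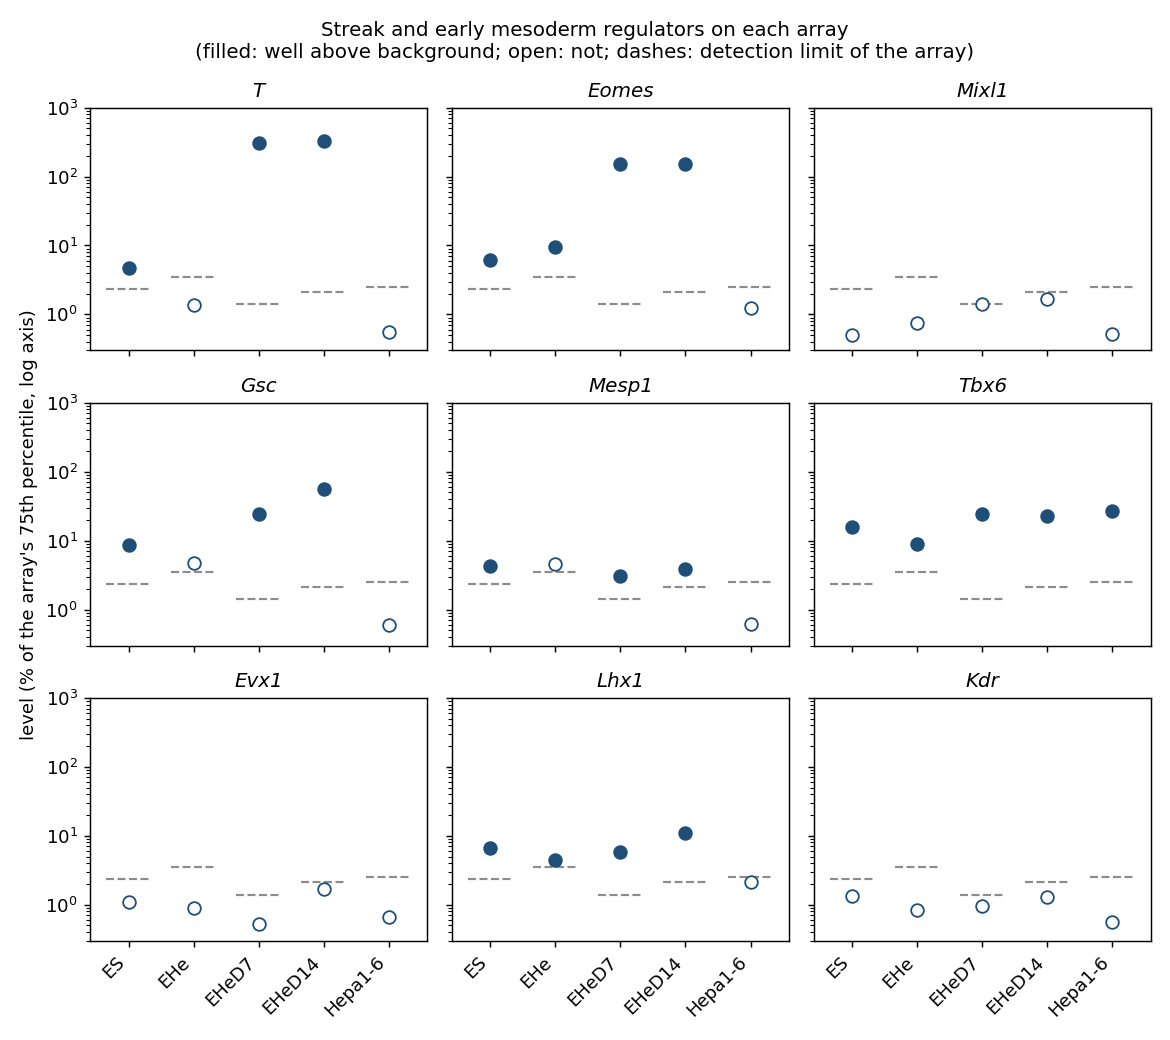
Level of the brightest probe of each of the 9 genes on the 5 arrays, in percent of the array's 75th percentile on a log axis, with filled points well above background, open points not, and dashes at each array's detection limit. T at 307% and 327%, Eomes at 154% and 151% and Gsc at 24.6% and 56% stand highest in EHeD7 and EHeD14, while Mixl1, Evx1 and Kdr show open points on every array.

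Of the streak members, T, Eomes and Gsc thus rose, Lhx1 did not pass 3-fold, and Mixl1 and Evx1 were not well above background, while of the mesoderm members Tbx6 was under 3-fold and Mesp1 and Kdr gave no fold against EHe. Other mesoderm lists were read in the same way. Of 8 presomitic and paraxial mesoderm genes compared at day 7, 1 was over 3-fold higher and 2 lower than EHe, and of 7 at day 14, 0 were higher and 1 lower. Here and below, genes named only to complete a count were chosen after their values were seen, such as Foxc1, higher, and Foxc2, lower, at day 7, neither of them past 3-fold with normexp. The gene lower on both days was Tcf15, a factor of somites and of epiblast cells, at 2947% in ES and 4005% in EHe, then 700% in EHeD7 and 502% in EHeD14, and not well above background in Hepa1-6, a fall of 5.72-fold and 7.97-fold from EHe. Mesp2, a segmentation gene beside Mesp1 in the genome, was 1.63-fold and 1.22-fold above EHe.

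Of 9 cardiac and lateral plate mesoderm genes compared at day 7, 2 were over 3-fold higher than EHe and 0 lower, and of 8 at day 14, 3 were higher and 0 lower. Hand1, a factor of lateral plate mesoderm and trophoblast, stood at 29.8% in ES, 96.6% in EHeD7 and 123% in EHeD14 and was not well above background in EHe or Hepa1-6. By its measured EHe level of 3.5%, it was 27.6-fold and 35.2-fold above EHe (log2 differences of 4.79 and 5.14, and 3.35 and 3.65 with normexp). It was 4.13-fold above ES at day 14. Snai1, a repressor of E-cadherin used by cells leaving the streak, was at least 5.49-fold and 5.23-fold above EHe (log2 differences of 2.46 and 2.39, and 1.60 on both days with normexp) but brighter in Hepa1-6, at 133%, than in EHeD7, at 19.2%. Gata6 was 3.64-fold above EHe at day 14, under 3-fold with the mean of its probes, yet 3.55-fold under ES. Nkx2-5, a heart factor, was 2.55-fold and 1.15-fold above EHe.

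Beside the dim Kdr, blood and endothelial genes were divided. Of 9 compared on each day, 3 were over 3-fold higher than EHe and 1 lower. Flt1, another receptor for vascular endothelial growth factor, rose from levels not well above background in ES and EHe to 66.2% and 65.4%, at least 19-fold and 18.7-fold above EHe. These log2 differences of 4.25 and 4.23 were 2.89 and 2.91 with normexp and 2.76 and 2.72 with the mean of its probes. Etv2, an ETS factor upstream of blood and endothelium, was 3.07-fold and 4.59-fold above EHe, the day 7 value falling under 3-fold with normexp, quantile normalization and median centring. Cd34 was 3.84-fold and 3.03-fold above EHe, under 3-fold with normexp on both days and with median centring at day 14, so that normexp left 1 gene higher at day 7 and 2 at day 14. Etv2 read 22.3% in ES, 31.6% in EHeD7 and 47.2% in EHeD14, and Cd34 28.6%, 48.8% and 38.5% on the same arrays. Pecam1, an adhesion protein of endothelium and also of embryonic stem cells, read 71.8% in ES, 39.8% in EHe and 4.4% in EHeD7 and was at least 18.7-fold lower than EHe at day 14, a log2 difference of -4.23, or -2.46 with normexp.

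The rise of T and Eomes was not shared by most other T-box genes. Of 7 compared at day 7, 1 (Tbr1) was over 3-fold higher and 1 (Tbx3) lower than EHe, and of 6 at day 14, 0 were higher and 1 (Tbx3) lower. Tbr1 was under 3-fold with normexp. Tbx3, which is active in naive stem cells, read 2939% in ES and 915% in EHe, 34.2% in EHeD7 and 33.5% in EHeD14, and 484% in Hepa1-6, and was 26.7-fold and 27.3-fold lower than EHe. Tbx1 was 1.66-fold above EHe at day 7 and 1.14-fold under it at day 14.

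Genes of the signals that act upstream of T and Eomes, read together with inhibitors and targets of these signals, moved in both directions. Of 16 genes of streak-inducing signals, their inhibitors and targets compared at day 7, 8 were over 3-fold higher than EHe and 2 lower, with a median log2 difference of 0.99. The counts thus do not describe upstream signals alone. With normexp 5 were higher, without Dkk1, Axin2 and Lef1. Of 17 at day 14, 6 were higher and 4 lower, with a median of 0.50. Wnt3, the ligand needed to form the streak, read 387% in EHeD7 and 298% in EHeD14 and was not well above background on the other 3 arrays, a rise of at least 111-fold and 85.3-fold, or of 6.79 and 6.42 on the log2 scale, which became 5.07 and 4.87 with normexp. A weaker Wnt3 probe gave 232% and 183% and was likewise not well above background elsewhere. Sp5, a direct Wnt target that can act beside T, read 4.02% in ES and 9.99% in EHe, 319% in EHeD7 and 297% in EHeD14, and 1225% in Hepa1-6. It rose 31.9-fold and 29.7-fold, and unlike T it was highest in the hepatoma.

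Fgf8, a ligand that streak cells need to migrate, read 8.64% in ES and 9.57% in EHe, 84% in EHeD7 and 179% in EHeD14, and 4.19% in Hepa1-6, 8.78-fold and 18.7-fold above EHe. These log2 differences of 3.13 and 4.22 went down to 2.2 and 3.23 over the processing alternatives. Nodal was bright before differentiation, at 1434% in ES and 1208% in EHe, and stood at 4270% in EHeD7 and 4261% in EHeD14. That was 3.54-fold and 3.53-fold above EHe, and 2.97-fold above ES at day 14. Of the Nodal inhibitors, Lefty1 fell from 3211% in EHe to 636% and 512%, and Lefty2 stood at 750% in EHe, 424% in EHeD7 and 161% in EHeD14, 1.77-fold lower than EHe at day 7, which is under 3-fold, and 4.65-fold lower at day 14. Cer1 was well above background in EHeD14 alone, at 4.67%, at least 1.34-fold above EHe and at least 3.33-fold above EHeD7. These 3 inhibitors fall outside the rule for named genes and were chosen after their values were seen, as were Gdf3, a Nodal-related ligand 3.63-fold lower at day 14, and Bmp4, 3.75-fold lower. Wnt3a, a ligand of later posterior streak, was chosen in the same way, and was well above background in ES alone, at 4.47%.

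**Figure D2:**
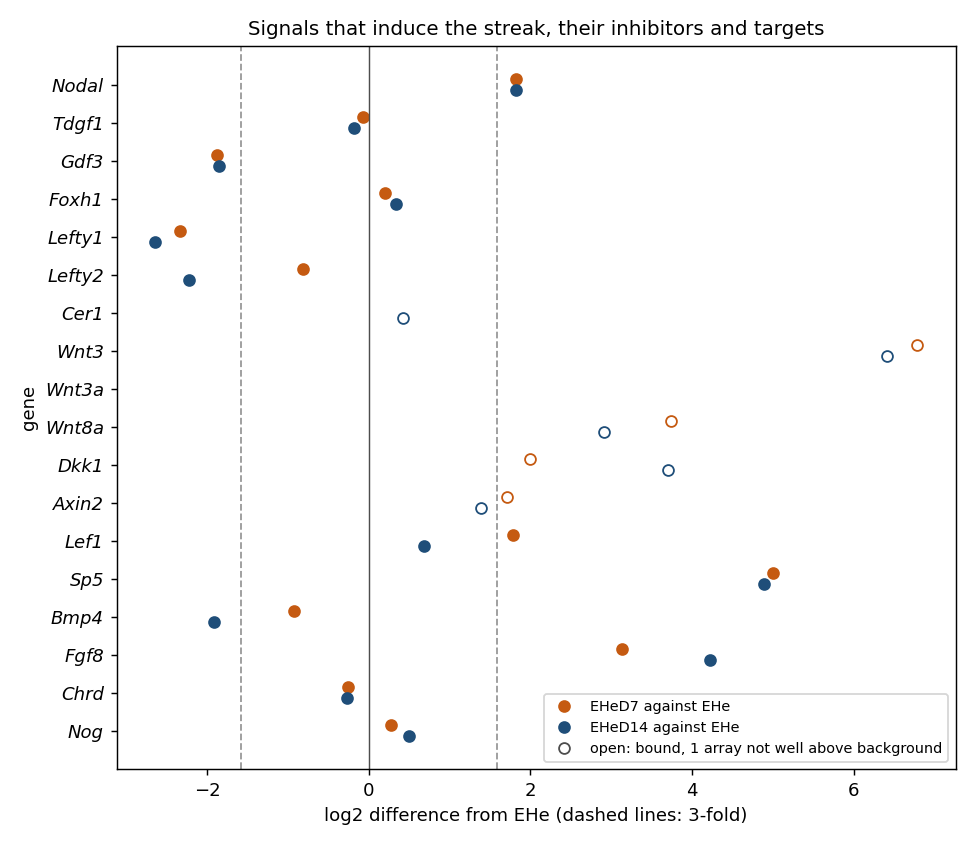
Log2 difference of EHeD7 (orange) and EHeD14 (blue) from EHe for 18 genes of streak-inducing signals, their inhibitors and targets, 1 gene in each line, with open points for bounds and dashed lines at 3-fold. Wnt3 at 6.79 and 6.42, Sp5 at 4.89 on day 14 and Fgf8 at 3.13 and 4.22 lie far to the right, Lefty1 at -2.34 and -2.65 lies to the left, and Wnt3a on both days and Cer1 at day 7 have no point because no fold could be given.

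Marker genes of other cell states were read beside T, Eomes and Gsc, and the part of such states in the rise of these 3 genes was not tested. All 5 primed epiblast genes with a probe were over 3-fold higher than EHe at day 7 and 4 of 5 at day 14, all but Lef1, which is also in the list of signals, with 0 lower on either day. The summed level of the 5 was 1110% in ES and 561.9% in EHe, 4293% in EHeD7 and 5308% in EHeD14, and 43.43% in Hepa1-6, and Dnmt3b stood at 2544% in EHeD14. Since probes differ in brightness, such a sum compares arrays and not genes. Fgf5, a growth factor of the epiblast before the streak forms, was at least 145-fold and 227-fold above EHe (log2 differences of 7.18 and 7.82, and 5.98 and 6.71 with normexp), reaching 791% at day 14. Pou3f1 was 5.23-fold and 9.49-fold above EHe. Otx2 was 16.3-fold and 17.6-fold above EHe, in which it was 7.24-fold lower than in ES, and 2.25-fold and 2.43-fold above ES, both under 3-fold. With normexp Lef1 was under 3-fold at day 7.

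Of 8 pluripotency genes, 0 were over 3-fold higher and 5 lower than EHe at day 7, and 0 higher and 6 lower at day 14. Those lower on both days were Sox2, Zfp42, Esrrb, Klf4 and Tbx3, the last also counted with the T-box genes. Dppa3 was lower at day 14 alone. It was under 3-fold with normexp and with the percentile over probes well above background on all 5 arrays. The summed level of all 8 genes was 36074% in ES and 38765% in EHe, 22660% in EHeD7 and 12169% in EHeD14, and 2831% in Hepa1-6. Dppa5a, which was not among the 5 lower on both days, stood at 23309% in EHe, 19115% in EHeD7 and 9631% in EHeD14. It thus made up most of the sum on each of these arrays. Zfp42 stood at 5133% in EHe, 615% in EHeD7 and 302% in EHeD14. Esrrb and Klf4, factors of the naive state, were 116-fold and 41.8-fold lower than EHe at day 14. Pou5f1 stood at 2119% in EHeD7 and 1807% in EHeD14, 1.29-fold and 1.1-fold above EHe. T and Eomes were therefore bright in samples in which Pou5f1 was no lower than in ES.

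Of 7 definitive and extraembryonic endoderm genes compared on each day, 1 (Dab2) was over 3-fold higher and 1 (Sox7) lower than EHe at day 7, and 3 were higher and 0 lower at day 14. The summed level of all 9 genes of the list with a probe, Afp and Foxa1 among them, was 302.7% in ES and 139.6% in EHe, 173.2% in EHeD7 and 304.9% in EHeD14, and 12625% in Hepa1-6, and Dab2 stood at 169% in EHeD14 and Afp at 10925% in Hepa1-6. Sox17 and Foxa2, which share the anterior streak lineage with Gsc, were 4.69-fold and at least 5.31-fold above EHe at day 14, against 2.03-fold and at least 1.21-fold at day 7. With normexp the day 14 value of Sox17 was under 3-fold. Dab2 was 5.83-fold and 12.2-fold above EHe, in which it was 6.43-fold lower than in ES, and with the mean of its probes its day 7 log2 difference was 0.91, under 3-fold. Against ES, Dab2 was 1.1-fold lower at day 7 and 1.89-fold higher at day 14. At day 14, Sox17 was 1.39-fold lower than in ES and Foxa2 1.34-fold higher. Afp and Foxa1 were not well above background in EHeD7 or EHeD14.

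Since Eomes also marks trophoblast, those genes were read beside it. Of 7 compared at day 7 and 6 at day 14, 3 (Krt7, Gata3 and Hand1) were over 3-fold higher and 1 (Tfap2c) lower than EHe on each day. Hand1 is in the cardiac list as well. The summed level of all 8 genes of the list with a probe was 1724% in ES and 1006% in EHe, 474.8% in EHeD7 and 529.8% in EHeD14, and 426.7% in Hepa1-6. Most of the sum in ES and EHe was Tfap2c, at 1617% and 981%. It stood at 70.4% in EHeD7 and 28.1% in EHeD14, so the fall of the sum does not show the other genes. Krt7, a simple epithelial keratin, was 45.2-fold and 58.2-fold higher and stood at 289% in EHeD14, while Tfap2c was 13.9-fold and 34.9-fold lower. Over the processing alternatives the log2 differences of Krt7 went down to 4.08 at day 7 and 4.42 at day 14. Its level was 41.7% in ES and 4.96% in EHe, and highest in Hepa1-6, at 419%. Cdx2, a defining trophoblast factor, read 9.1% in ES, 1.85% in EHeD7 and 3.46% in EHeD14. In EHe it was not well above background, at 0.718%, and with signals as measured it was over 3-fold higher at day 14. Elf5, chosen with Tpbpa after their values were seen, was well above background in EHeD7, at 1.9%, and not in EHeD14, while Tpbpa was not on either array.

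Of 9 fibroblast and mesenchyme genes, 3 were over 3-fold higher and 2 (Vim and Snai2) lower than EHe at day 7, and 4 higher, with Twist1, and 2 (Fn1 and Snai2) lower at day 14. Acta2 is counted as unchanged by its brightest probe, at 1277% in EHe and 1273% in EHeD7. Another Acta2 probe, A_52_P420504, read 13.4% in EHe, 108% in EHeD7 and 125% in EHeD14, well above background on all of these. With normexp Snai2 on both days and Twist1 were under 3-fold, Twist1 also with median centring. Col1a1 was 22.1-fold and 19.5-fold, Col1a2 5.32-fold and 5.08-fold and Thy1 3.51-fold and 4.49-fold above EHe, Thy1 falling under 3-fold with the mean of its probes. Over the processing alternatives the log2 difference of Col1a1 went down to 2.99 at day 7 and 2.93 at day 14. The summed level of the list was 4139% in ES and 5577% in EHe, 3016% in EHeD7 and 3433% in EHeD14, and 4838% in Hepa1-6. Vim stood at 3947% in EHe, 1147% in EHeD7 and 1519% in EHeD14, and thus fell by more than the sum did. Of the neural ectoderm genes, 2 (Nes and Zic1) were higher and 2 lower on each day, of 7 and 5 compared. Zic1 was 9.54-fold and 6.69-fold higher, Tubb3 was 6.48-fold and 5.62-fold lower, and Pax6 was at least 61.2-fold and 40.3-fold lower (log2 differences of -5.94 and -5.33, and -3.41 and -3.49 with normexp), while Sox1 was 2.25-fold and 2.38-fold under EHe. Of the hepatocyte and hepatoma genes, 0 of 2 compared at day 7 and 0 of 1 at day 14 passed 3-fold either way by the brightest probe of each gene. The Hnf4a probe that was well above background in EHe, at 13.8%, was not so at 0.459% in EHeD7 and 0.982% in EHeD14.

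Days 7 and 14 were also compared. Of 6 members well above background on at least 1 of both arrays, 0 were over 3-fold higher at day 14, against 0.518% of all 14678 genes, and 0 over 3-fold lower, against 0.681%. The days differed by 2.27-fold for Gsc, 1.92-fold for Lhx1, 1.28-fold for Mesp1, 1.06-fold for T, 1.05-fold for Tbx6 and 1.02-fold for Eomes.

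Comparing EHe with ES, 0 of 6 members were called over 3-fold higher, against 2.6% of 14101 genes, and 0 over 3-fold lower, against 3.52%. Eomes was 1.58-fold higher in EHe, and Tbx6 1.75-fold and Lhx1 1.46-fold lower. T, dim in EHe, was at least 1.34-fold lower, and Gsc, also dim there, was 1.81-fold lower by its measured level. With dim signals as measured, T fell by 1.75 on the log2 scale, which is past 3-fold.

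In the hepatoma parent, Tbx6 was the sole member well above background. Comparing Hepa1-6 with ES, 0 of 6 members were over 3-fold higher, against 13.9% of 14551 genes, and 1 was over 3-fold lower, against 22.3%. That 1 was Gsc, at least 3.43-fold lower, and it passed 3-fold neither with normexp, nor with quantile normalization, nor with median centring. Eomes, Lhx1, T and Mesp1 were at least 2.4-fold, 2.59-fold, 1.84-fold and 1.69-fold lower than in ES. With quantile normalization the log2 differences of T and Mesp1 became 0.00. Over the processing alternatives those of Eomes and Lhx1 shrank to as little as -0.25 and -0.38. All genes well above background on at least 1 of these 2 arrays had a median log2 difference of -0.42 between them.

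The genes whose profiles over the 5 arrays lay nearest to each member were found by the root mean square distance between centred log2 levels, with dim values at the higher of the detection limit and the measured level. For T these were Cxcl12 (0.32), a chemokine, Has2 (0.34), a hyaluronan synthase, and Fnd3c2 (0.43). Cxcl12 read 292% in EHeD7 and 362% in EHeD14, and Has2 193% and 235%. Galnt3 (0.30), Thbs4 (0.33) and Svop (0.37) lay nearest to Eomes, and 3830417A13Rik (0.15), Tmem119 (0.22) and Jaml (0.27) nearest to Gsc. Like Gsc, 3830417A13Rik was higher at day 14, at 63.4%, than at day 7, at 20.5%.

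Jakmip1 (0.09), Ftcd (0.16) and Gbp4 (0.18) were nearest to Lhx1. Tbx6 had Dstn (0.11), Tcf7 (0.12) and Uvssa (0.13), and Mesp1 had Cdk1 (0.04), Gatd3a (0.05) and Med7 (0.05), all 3 well above background on every array. Where a member was dim, as Mesp1 was in EHe and Hepa1-6, its distances depend on the value set for the dim arrays, and for Mesp1 the Hepa1-6 value was raised from 0.609% to the limit of 2.53%. No member appeared among the neighbours of another.

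The promoters of the 3 genes that rose, and of Mesp1, which did not, are shown to let their sequences be compared. They run from 250 bases before to 50 bases after the gene start, come from RefSeq on build GRCm38.p6 and are written 5′ to 3′ on the gene's own strand. Of the 9 genes, 8 matched an entry, and Mixl1 did not. The T promoter is chr17:8434173-8434472 on the plus strand, that of Eomes chr9:118477939-118478238 on the plus strand, that of Gsc chr12:104473187-104473486 on the minus strand and that of Mesp1 chr7:79793541-79793840 on the minus strand. Capitals mark matches to the motifs searched.
T promoter: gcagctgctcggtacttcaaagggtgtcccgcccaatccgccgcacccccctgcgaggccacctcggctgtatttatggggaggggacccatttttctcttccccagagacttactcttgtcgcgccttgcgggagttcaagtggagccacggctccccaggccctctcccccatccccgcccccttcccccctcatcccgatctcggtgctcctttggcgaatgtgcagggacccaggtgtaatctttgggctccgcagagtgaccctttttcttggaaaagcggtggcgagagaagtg
Eomes promoter: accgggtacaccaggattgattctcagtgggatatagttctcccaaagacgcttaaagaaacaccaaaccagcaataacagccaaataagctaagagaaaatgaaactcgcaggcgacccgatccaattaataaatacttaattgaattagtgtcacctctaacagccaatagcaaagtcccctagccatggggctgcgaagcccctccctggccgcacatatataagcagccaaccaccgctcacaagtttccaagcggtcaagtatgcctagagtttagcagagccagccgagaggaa
Gsc promoter: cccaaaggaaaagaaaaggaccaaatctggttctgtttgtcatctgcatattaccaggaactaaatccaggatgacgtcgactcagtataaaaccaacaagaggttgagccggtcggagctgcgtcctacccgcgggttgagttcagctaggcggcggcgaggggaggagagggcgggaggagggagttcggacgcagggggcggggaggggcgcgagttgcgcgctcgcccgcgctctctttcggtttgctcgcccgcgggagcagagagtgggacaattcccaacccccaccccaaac
Mesp1 promoter: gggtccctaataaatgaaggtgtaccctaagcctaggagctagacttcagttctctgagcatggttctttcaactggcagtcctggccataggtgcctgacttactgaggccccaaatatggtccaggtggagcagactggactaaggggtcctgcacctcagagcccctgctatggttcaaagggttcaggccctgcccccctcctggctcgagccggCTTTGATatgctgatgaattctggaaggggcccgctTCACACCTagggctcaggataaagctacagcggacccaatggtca

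Letters of 3 motifs were searched on both strands, none of which contains another: AGGTGTGA for T-box factors, ATCAAAG for the TCF/LEF factors of the Wnt pathway and AATCCACA for Foxh1, a partner of Nodal-activated Smads. They occur in 1.28%, 3.73% and 0.855% of 32851 promoters of the same length. Of the 8 member promoters, 1 held the T-box letters, 1 the TCF/LEF letters and 0 the Foxh1 letters. Both matches were in Mesp1, TCACACCT starting at position 256 of the window and CTTTGAT at position 220, each on the reverse strand. T, Eomes and Gsc, the genes that rose, held none of the 3. A match is a description and neither a binding site nor a cause, and the lack of one says that these letters are not in this window.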

How the data were processed

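Expression was measured on 5 one-colour Agilent mouse arrays, 1 for each condition, grouped by their labels. The authors deposited tables from Agilent Feature Extraction 10.7.3.1, in which the processed signal of each of 45018 spots is an intensity, background-subtracted and detrended by that software and not normalized between arrays. The deposited tables also hold the median signal and local background as intensity and a 0 or 1 in each spot for outlier, saturation and well-above-background calls. Labels give Cy3 and the study's methods Cy5. Control spots and outlier spots (73 to 174 for each array) were left out, and no spot was saturated.

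Log2 signals were averaged over the spots of a probe and shifted by the array's 75th percentile. A probe was well above background where most of its spots were. Of 41174 probes, 26888 were named through RefSeq accessions, and a gene was read from its brightest probe, the one with the highest mean log2 level. Genes well above background on at least 1 of the 2 arrays were compared and counted past 3-fold, a threshold used in the study. Their number limits the precision. Among probes printed 10 times the median spot SD ran from 0.07 to 0.10 on the log2 scale, which is spot noise and not a replicate error.

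The members and the 12 other gene lists were chosen with earlier results of these data known. Besides the members, the genes named by rule were, for each list, its first gene and up to 3 with the largest EHeD14 minus EHe difference past 3-fold, and for each member well above background on at least 2 arrays its 3 nearest profiles. Other genes given with values, such as Zfp42, Dppa5a, Cd34, Dnmt3b, Vim and Afp, fall outside this rule. No probe was named for Fgf4, Tal1, Nanog, Sox3 or Serpina1b. The alternatives were quantile normalization, normexp (offset 50), centring on the median, the percentile over probes well above background on all 5 arrays, the series table, signals as measured, only genes well above background on all 5 arrays, averaging of a gene's probes and a 2-fold threshold. Normexp used the median signal, as the tables used here have no mean signal column. The counting was run on simulated data, in which genes well above background in EHe were raised well past 3-fold. Both simulated arrays had the same background calls, so the bounds for dim values were not tested. The tools were R 4.3.3 with limma 3.58.1 for normexp, and Python 3.11.15 with pandas 2.3.3, numpy 2.4.6 and matplotlib 3.10.9.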

Additional observations from a re-analysis of the deposited data

How the results depend on the processing

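No paired analysis was possible because there was 1 array for each condition, and leaving out a replicate and a block were not run for the same reason. Of 90 counts of members under an alternative, 79 stayed within 1.5 times the reported count and 11 moved. Most reported counts were 0 and could only stay at 0 or rise. The 79 include the day 7 count of members higher than EHe with normexp, from which Gsc dropped out. Of 713 log2 differences of members and named genes, 448 stayed within the spot noise of 0.13 and 265 moved, and none that passed 3-fold changed sign. T was 5.18 to 7.80 above EHe at day 7 and 5.26 to 7.89 at day 14 on the log2 scale, Eomes 3.23 to 4.15 and 3.23 to 4.09, and Gsc 1.26 to 2.51 and 2.29 to 3.66, over 7 alternatives.

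The 1 member lower in Hepa1-6 than in ES became 0 under normexp, quantile normalization and median centring, against 15.6%, 16.2% and 12.9% of all genes compared. Signals as measured gave 5 lower (T, Eomes, Gsc, Mesp1 and Lhx1), against 27.9% of all genes, since dim values are then not raised, and 1 member, T, lower in EHe than in ES, against 6.15%. Requiring genes to be well above background on all 5 arrays left 1 member, Tbx6, so that the 3 higher members became 0 on each day, against 4.54% and 4.69% of all genes, and the 1 lower in Hepa1-6 became 0, against 15.6%. At 2-fold, 5 members were higher at day 14 than in EHe (Tbx6 and Lhx1 in addition), against 13.3% of all genes, 1 (Gsc) was higher at day 14 than at day 7, against 1.31%, and 3 (Eomes, Gsc and Lhx1) were lower in Hepa1-6, against 34.1%. Other causes were not tested.

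Over genes well above background on any array, the median log2 difference of Hepa1-6 from ES was -0.33 as reported, 0.46 with median centring and 0.00 with quantile normalization, so directions against Hepa1-6 are relative to the scaling. Signal over background limits what can be said of members dim in EHe.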

Other observations

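Each condition had 1 array, so no difference has a replicate check, and both differentiated samples were compared with 1 EHe array. Medium, LIF and time changed together, the slide changed with Hepa1-6, and the hybrid colony behind each array is not stated. Several members lay near the detection limit, where a fold can be a bound. Protein, cell morphology and single-cell differences were not analysed here.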
